A study of Mus musculus with 6 samples.

Results

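The lysosome and autophagy genes described here were a named set of 33 mouse genes, matched by gene symbol to the 33696 genes counted in each library. All 33 were found. Single-cell RNA from dissociated mouse brain cells had been captured with droplet 3′ chemistry, in which each captured transcript is counted once as a unique molecular identifier (UMI). There were 6 libraries in 3 groups of 2: wild-type (WT) mice given vehicle, WT mice given bilirubin, and mice labelled TRPM2 Mg KO given bilirubin, the yellow breakdown product of heme. TRPM2 is a cation channel gene, and the labels do not spell out Mg, so what the knockout covers is given here only in that label's words. Both bilirubin groups received the same agent, and no knockout group with vehicle was part of the set, so a genotype effect without bilirubin cannot be told apart from one with it. Dose, duration, age, sex and brain region are not given in the sources used here. Nothing states that the 2 libraries of a group came from separate animals, so the spread between them may be technical. The p-values of group comparisons, within a class or in all kept cells, reflect that spread alone. Tests with library as a block take it out. Their p-values reflect how differences between classes vary from library to library, with the classes of a library counted as separate observations.

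Lysosomes are acidic organelles in which proteases, glycosidases and lipases break down material delivered by endocytosis, phagocytosis and autophagy. The vacuolar ATPase (V-ATPase) pumps protons to acidify them, highly glycosylated membrane proteins line them, and the transcription factor TFEB switches on many of their genes through E-box-like motifs near start sites. Microglia, the resident phagocytes of the brain, are rich in lysosomes, and the choroid plexus epithelium secretes cerebrospinal fluid.

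The motif CACGTG, the core of the site that TFEB binds, was searched in RefSeq promoter windows of the mouse GRCm38.p6 assembly, each 250 bases before to 50 bases after a start site, on both strands. Windows were found for 29 of the 33 genes (36 windows), and Atp6v1h, Ctsb, Atp6v1b2 and Ctsh had none in the table. At least 1 CACGTG lay in the windows of 8 of the 29 genes (27.6%), against 8.09% of all genes with a window and 7.15% of all 32851 windows. These were Atp6v0d1, Atp6v1a, Ctsa, Ctsd, Ctsl, Lamp1, Lgmn and Mcoln1. The longer palindrome TCACGTGA, which contains CACGTG, was present for 5 of the 29 genes (17.2%), against 1.12% of all genes. Its variant TCATGTGA, read as TCACATGA on the other strand, was present for Atp6v0c, Ctss and Grn (10.3%), against 1.15% of all genes. TCACGTGA with a G before it and a C after it was also searched. That longer motif was present for 0 of the 29 genes, against 0.37% of all genes. It is too rare for 0 of 29 to set these genes apart from all genes. A match is a string of letters and not a measured site. Stretches that lie before the start sites of 6 genes on which results below turn, or which hold several matches, are shown here 5′ to 3′ on the gene's own strand, with the matches in capitals. They lie at chr7:142387879-142388077 (minus strand) for Ctsd, chr13:64370711-64370770 (minus) for Ctsl, chr11:102430257-102430343 (plus) for Grn, chr8:13159060-13159160 (plus) for Lamp1, chr8:3500408-3500518 (plus) for Mcoln1 and chr16:44139344-44139431 (minus) for Atp6v1a.
Ctsd: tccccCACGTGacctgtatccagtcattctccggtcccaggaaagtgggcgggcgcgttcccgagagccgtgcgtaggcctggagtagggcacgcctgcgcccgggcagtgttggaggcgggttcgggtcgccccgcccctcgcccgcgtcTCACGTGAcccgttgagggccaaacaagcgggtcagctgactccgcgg
Ctsl: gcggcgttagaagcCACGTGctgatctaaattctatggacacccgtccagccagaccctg
Grn: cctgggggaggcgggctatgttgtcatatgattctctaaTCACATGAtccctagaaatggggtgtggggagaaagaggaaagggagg
Lamp1: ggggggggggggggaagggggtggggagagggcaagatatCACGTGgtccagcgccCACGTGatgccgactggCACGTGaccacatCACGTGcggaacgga
Mcoln1: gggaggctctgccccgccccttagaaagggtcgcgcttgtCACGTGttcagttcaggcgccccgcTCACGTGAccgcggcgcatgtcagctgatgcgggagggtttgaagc
Atp6v1a: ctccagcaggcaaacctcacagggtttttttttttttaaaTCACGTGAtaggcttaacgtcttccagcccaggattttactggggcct
The Lamp1 stretch held 4 separate matches, Ctsd and Mcoln1 held 2 each, and Ctsl, Grn and Atp6v1a held 1 each.

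Barcodes per library numbered 4137 to 24309 and UMIs 24165563 to 63402551, and any 2 libraries shared at most 144 barcodes, 0.943% or less of the smaller library. Of 95014 barcodes, 79765 were kept and 30524 (38.3% of those kept) passed a marker gate. A cell was assigned to a class when at least 3 different markers of it were detected and at least 2 times as many as of any other class. The 33 genes were not among the markers. Classes with at least 20 cells in every library were tested: 7475 microglia-like cells, 9314 choroid plexus epithelium-like cells, 6376 astrocyte-like cells, 3969 endothelial-like cells, 1049 ependymal-like cells and 794 oligodendrocyte-like cells. The genes that most set each class apart included its own markers. For microglia-like cells these were Cx3cr1, P2ry13 and Gpr34, with the cytokine genes Tnf, Ccl2, Ccl3 and Ccl4 also among the leading 10. WT bilirubin library 2 stood apart in RNA of some other classes. The summed level of 12 endothelial markers in its microglia-like cells was 118 CPM, against 273 to 580 CPM in the other 5 libraries. Astrocyte and mural markers were lowest there too. Choroid plexus and ependymal markers, at 292 and 205 CPM, lay within the range of the other libraries, and neutrophil markers were highest, at 237 CPM. Results that change without this bilirubin library are given with and without it. WT vehicle library 1 stood apart too. Ttr, a choroid plexus transcript, took 1.23% of the UMIs of its kept cells, against 6.65% to 12.2% in the other 5 libraries. Its choroid plexus epithelium-like cells held 570738 UMIs, against 1289297 to 15777219. Several calls below are lost without this vehicle library. With fewer than 20 cells in at least 1 library were 27 cells like border-associated macrophages, 181 like neutrophils, 627 like T or NK cells and 8 further classes.

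Trpm2, the gene named by the knockout label, was still counted in the knockout libraries. In microglia-like cells its level was 20.9 and 14.6 CPM (UMIs of a gene scaled to the same library total throughout) with vehicle, 20.9 and 35 CPM in WT with bilirubin, and 15.5 and 25 CPM in the knockout with bilirubin. The groups overlapped. Knockout against WT, both with bilirubin, differed by -0.55 on the log2 scale (SE 0.38, n = 2 against 2, edgeR quasi-likelihood test, adjusted p over all genes 1.00). The labels do not say which part of the gene was deleted, and 3′ reads from outside that part are still counted, so this level does not check the label.

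Microglia-like cells carried the largest share of their RNA in the 33 genes among the tested classes. Between 1.13% and 2.28% of their UMIs fell in the set over the 6 libraries (median 1.84%). The shares were 0.553% to 0.827% in choroid plexus epithelium-like cells, 0.578% to 0.813% in astrocyte-like cells, 0.582% to 0.753% in oligodendrocyte-like cells, 0.557% to 0.693% in endothelial-like cells and 0.554% to 0.742% in ependymal-like cells. The lowest microglial library lay above the highest library of every other tested class. Within microglia-like cells the share was 1.13% and 1.42% with vehicle, 2.28% and 2.24% in WT with bilirubin, and 1.99% and 1.68% in the knockout with bilirubin. Both WT bilirubin libraries were highest, both vehicle libraries were lowest, and the knockout libraries lay between them without overlap.

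**Figure D1:**
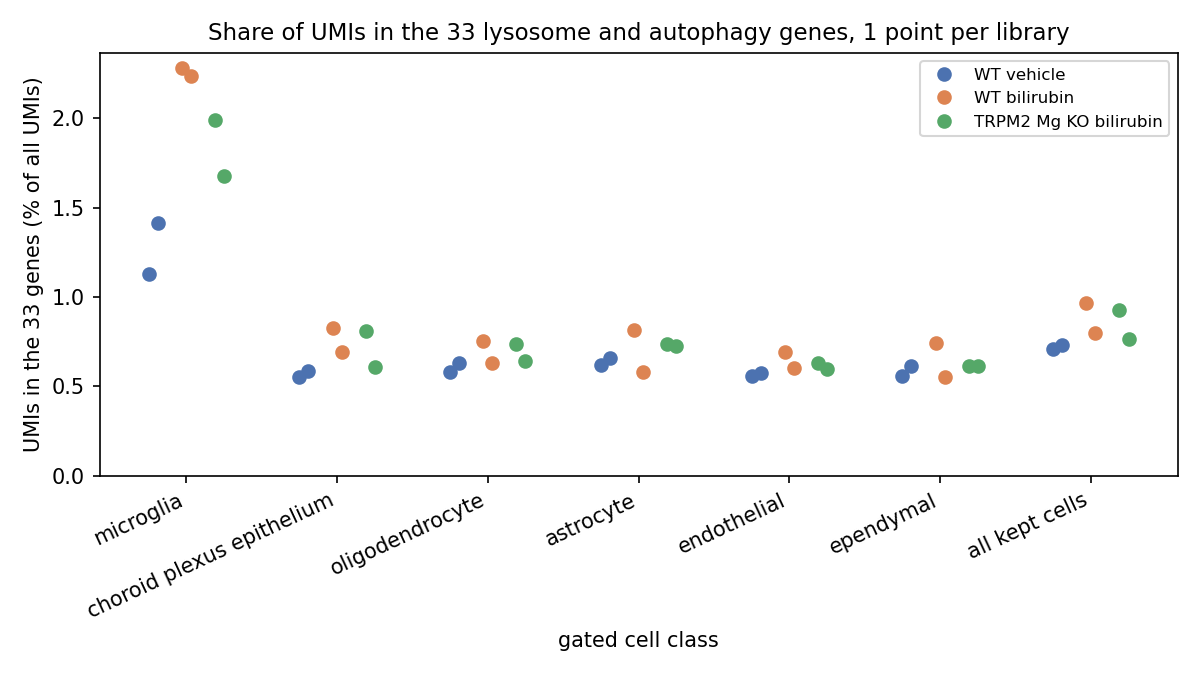
Share of UMIs that fell in the 33 lysosome and autophagy genes (y axis, % of all UMIs) for each of the 6 tested classes and for all kept cells (x axis), with 1 point per library coloured by group. In microglia-like cells the 2 WT vehicle libraries sit at 1.13% and 1.42%, below the 4 bilirubin libraries, and all 6 lie above every library of the other 5 tested classes.

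The first comparison asked which brain cell classes carry which parts of the machinery. Each class was tested against the mean of the other 5 across the 6 libraries, with library as a block (edgeR quasi-likelihood test, Benjamini-Hochberg adjustment over 11254 genes, threshold 0.05). In microglia-like cells 26 of the 33 genes were higher and 1 was lower, where 29.4% of all genes were higher and 35.7% lower. The median log2 difference of the 33 was 0.90, against -0.09 for all genes. In choroid plexus epithelium-like cells 19 were higher and 11 lower (35.8% and 44.6% of all genes), with a median of 0.35. The other classes leaned the other way: 2 higher and 22 lower in ependymal-like cells (20.9% and 19.5% of all genes), 2 and 18 in endothelial-like cells (17.2% and 25.2%), 0 and 14 in astrocyte-like cells (22.1% and 25.5%), and 7 and 15 in oligodendrocyte-like cells (20.1% and 26.8%). All level comparisons between classes below are among these 6 tested classes, so "another class" means one of the other 5. Cells like border-associated macrophages, the phagocytes closest to microglia, were too few to test (27 cells). Their pooled levels of Ctsc (840 CPM) and Hexa (349 CPM) passed the highest microglial library. Those of Grn (491.5 CPM) and Cd68 (365 CPM) lay within the range of the microglial libraries. Those of Ctss, Ctsd, Lgmn and Laptm5 lay below that range. Those pooled levels were taken over all UMIs of the class, without the TMM factors used for the tested classes. Classes of 1 library share its free RNA, which may add to the levels of each class by unlike amounts. In WT vehicle library 1 the summed microglia markers, scaled within each class, were at 334 CPM in choroid plexus epithelium-like cells. They were at 812 CPM in endothelial-like cells. The part of free RNA in the class differences was not tested, and levels below are given with that limit.

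**Figure D2:**
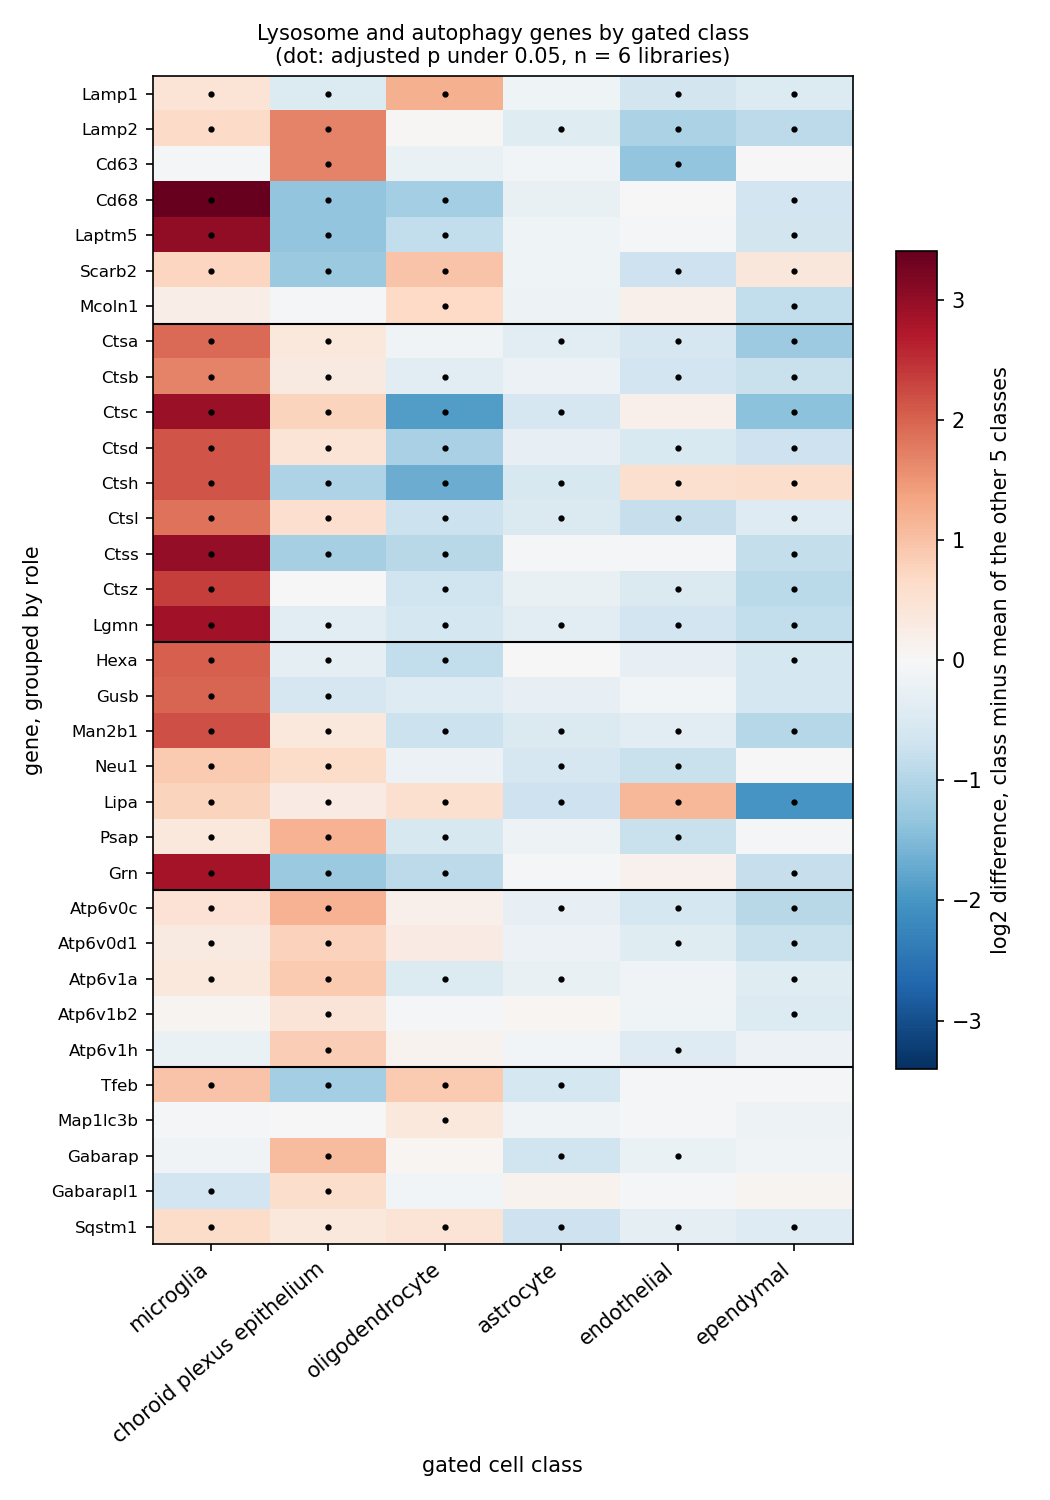
Log2 difference of each gene's level in a class against the mean of the other 5 classes (colour) for the 33 genes (rows, grouped by role) in the 6 tested classes (columns), where a dot marks an adjusted p under 0.05 over n = 6 libraries. The proteases and glycosidases fill the microglia column, with the largest difference 3.40 for Cd68, and the V-ATPase subunits are higher in the choroid plexus epithelium column.

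Among the tested classes the lysosomal proteases were highest in microglia-like cells. All 9 were higher there, with a median log2 difference of 2.15, and all 9 had their highest mean level in that class among the 6. Levels in the class comparison are CPM scaled with TMM factors taken over all tested classes and libraries together. Ctss, a cysteine protease that trims the invariant chain in antigen presentation, was at 2170 to 5102 CPM (median 4145) in microglia-like cells. In the other 5 classes it ranged from 194 to 940 CPM, with no overlap (log2 difference 3.0, SE 0.14, edgeR adjusted p = 3.4e-22). Ctsc, which activates granule serine proteases, was at 115 to 336 CPM (median 256) in microglia-like cells, and choroid plexus epithelium-like cells followed at 32.4 to 99.9 CPM. Lgmn, the asparaginyl endopeptidase legumain, reached 690 to 1629 CPM (median 1208) in microglia-like cells, and no library of another tested class passed 277.7 CPM.

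Ctsd, the main lysosomal aspartic protease, stood at 1510 to 2685 CPM (median 1870) in microglia-like cells and at 587 to 895 CPM in choroid plexus epithelium-like cells, which came next. Ctsl, a cysteine protease, had a wide spread in microglia-like cells, 317 to 1775 CPM (median 1011), and this range overlapped that of choroid plexus epithelium-like cells, 143 to 889 CPM. Ctsa, Ctsb, Ctsh and Ctsz were also higher in microglia-like cells. Of these, Ctsa and Ctsh overlapped the next class and Ctsb and Ctsz did not. Ctsh was in addition higher in endothelial-like cells (log2 difference 0.55, SE 0.16, edgeR adjusted p = 0.0044) and in ependymal-like cells (0.59, SE 0.19, edgeR adjusted p = 0.0104).

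All 7 genes of the glycosidase, lipase and cofactor group were higher in microglia-like cells, with a median log2 difference of 1.99. Grn encodes progranulin, which lysosomal proteases cut into granulins. It was at 267 to 629 CPM (median 402) in microglia-like cells, against at most 106 CPM in any library of another tested class (log2 difference 2.84, SE 0.11). Hexa, a lysosomal glycosidase gene, was at 172 to 341 CPM in microglia-like cells against at most 128 CPM in the other tested classes. Gusb and Man2b1, which cut glucuronic acid and mannose from glycans, likewise had no overlap with the next class, while the sialidase gene Neu1 overlapped it. Psap and Lipa had their highest means in other classes. Psap, the precursor of the saposins that assist sphingolipid breakdown, was at 906 to 1851 CPM (median 1379) in choroid plexus epithelium-like cells and 744 to 1089 CPM in microglia-like cells. Lipa, the lysosomal acid lipase, was at 34.3 to 103.7 CPM (median 53.3) in endothelial-like cells and 34.2 to 54.6 CPM in microglia-like cells, and these ranges overlapped.

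The membrane proteins were divided among 3 classes. Cd68, a macrophage sialomucin, and Laptm5, a lysosomal protein of blood cells, set microglia-like cells apart from the other 5 classes. Cd68 was at 271 to 429 CPM there and at most 69.8 CPM in any library of another tested class (log2 difference 3.40, SE 0.14). Laptm5 was at 691 to 1255 CPM there and at most 189 CPM in the other tested classes (log2 difference 3.03, SE 0.12). Lamp2 and Cd63 were instead highest in choroid plexus epithelium-like cells. Cd63, a tetraspanin of late endosomes and exosomes, was at 781 to 1928 CPM (median 1401) there, and the highest library of any other tested class had 687 CPM. Lamp2, a receptor for chaperone-mediated autophagy, was at 194 to 873 CPM (median 457) there and 208 to 337 CPM in microglia-like cells, which overlapped. Lamp1, Scarb2 and Mcoln1 had their highest mean in oligodendrocyte-like cells. Lamp1, the major lysosomal glycoprotein, was at 720.5 to 1213 CPM there and 504 to 830 CPM in microglia-like cells. Scarb2, the carrier of glucocerebrosidase, was at 130.1 to 187 CPM in oligodendrocyte-like cells and 106 to 190 CPM in microglia-like cells. Mcoln1, the lysosomal calcium channel, was at 9.36 to 22.6 CPM in oligodendrocyte-like cells, a low level that overlapped all other classes.

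The V-ATPase subunits went with the choroid plexus. All 5 had their highest mean level in choroid plexus epithelium-like cells and all 5 were higher there, with a median log2 difference of 0.84. Atp6v0c, the proton-carrying ring subunit, was at 723 to 1896 CPM (median 1167) there and 655 to 1113 CPM in microglia-like cells. Atp6v1a, the catalytic subunit, was at 129 to 223 CPM (median 163) in choroid plexus epithelium-like cells and 115 to 155 CPM in microglia-like cells. Atp6v0d1, Atp6v1h and Atp6v1b2 differed by 0.79, 0.84 and 0.45 on the log2 scale. Each of the 5 overlapped the next class.

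Ttr, a secreted carrier protein, took 11.7% to 21.2% of the UMIs of choroid plexus epithelium-like cells, so the scaling of libraries weighs on their differences. The level ranges, highest means and non-overlaps given for this class carry the TMM factors too. They were not recomputed with library totals. With library totals in place of the TMM factors, 6 of the 33 genes were higher and 21 lower in that class, and 11 of the 33 changed sign. Of the V-ATPase subunits, 4 of 5 then stayed above 0 and Atp6v1b2 was at -0.25. Cd63 (1.00), Lamp2 (0.98), Psap (0.50), Atp6v0c (0.49) and Gabarap (0.39) kept positive log2 differences. In microglia-like cells the counts were 26 higher and 1 lower under both scalings. The share of all genes called with library totals is not given here, so the counts with that scaling are not read as particular to the 33.

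The autophagy genes showed no single class. Tfeb itself was at 20.9 to 38 CPM (median 29.7) in microglia-like cells and 19.8 to 33.3 CPM in oligodendrocyte-like cells, and was higher than the mean of the other classes in both (log2 differences 0.98 and 0.88). Sqstm1, the cargo receptor p62, was higher in microglia-like, oligodendrocyte-like and choroid plexus epithelium-like cells (0.62, 0.48 and 0.36), the last of these at -0.34 with library totals. Map1lc3b, an LC3 protein of the autophagosome membrane, differed little and was higher in oligodendrocyte-like cells (0.37, SE 0.09). Its relatives went elsewhere. With TMM factors, Gabarap was at 1035 to 1629 CPM in choroid plexus epithelium-like cells against at most 907.6 CPM in any library of the other tested classes. Gabarapl1 was the only gene of the 33 called lower in microglia-like cells, at 35.9 to 70.1 CPM (median 47) against 82.6 to 116 CPM in choroid plexus epithelium-like cells.

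The share of cells with a UMI shows how far free RNA may reach. With vehicle, 92.2% ± 5.13 (SD, n = 2) of microglia-like cells had a Ctss UMI, and so did 57.8% ± 4.44 of choroid plexus epithelium-like cells and 58.3% ± 2.11 of astrocyte-like cells. After every cell was thinned to 1000 UMIs, which left out 290, 10 and 1161 vehicle cells of the 3 classes, the shares were 86.1%, 28.3% and 51.1%. For Cd68 the thinned shares were 22.5%, 2.87% and 5.53%. Free RNA and expression by those classes cannot be told apart from these shares, so a Ctss or Cd68 UMI there was not read as expression.

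Other genes of the pathway were taken from 6 lists of 119 symbols, of which 118 were in the files. Of the 109 that could be tested between classes, 58 were higher and 20 lower in microglia-like cells, with a median log2 difference of 0.30. For comparison with these and the next counts, 29.4% of all genes were higher and 35.7% lower in that class. The further hydrolases and cofactors had 17 higher and 4 lower of 24, and the other membrane proteins and sorting receptors had 14 higher and 1 lower of 18. The other V-ATPase subunits had 6 higher and 3 lower of 12, and the other autophagy genes 11 higher and 8 lower of 37. In choroid plexus epithelium-like cells 50 of the 109 were higher and 35 lower, where 35.8% and 44.6% of all genes were.

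The second comparison asked how the genes responded to bilirubin in microglia-like cells. Most sat higher in the WT bilirubin libraries, but none passed the test with 2 libraries per group. Of the 33 genes, 0 were called by edgeR over 13810 genes, where 0.00724% of all genes were called higher and 0% lower. Unadjusted p was under 0.05 for 14 of the 33, and for 2760 of the 13810 genes. DESeq2 called 8 of the 33 higher (0.833% of all genes), namely Ctsa, Ctsc, Ctsh, Ctsl, Ctss, Grn, Lgmn and Sqstm1. With 1 library left out, edgeR called 2 without WT vehicle library 2, 5 without WT bilirubin library 1, 3 without WT bilirubin library 2 and 0 without each of the other 3. These leave-one-out counts come without the share of all genes called in the same fits, so they show only that the calls depend on single libraries. The log2 fold change was above 0 for 29 of the 33, with a median of 0.51 against 0.05 for all genes. For 26 of the 33 both bilirubin libraries lay above both vehicle libraries, and for 2 they lay below, where 25.3% and 25.6% of all genes did so.

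Levels in the group comparisons are CPM scaled with the TMM factors of the class. The proteases had the largest fold changes. Ctsl was at 326 and 582 CPM with vehicle, 1785 and 1489 CPM in WT with bilirubin, and 1221 and 793.6 CPM in the knockout with bilirubin. Both bilirubin groups lay above vehicle, the WT libraries lay above the knockout libraries, and no 2 groups overlapped. The fold change of WT bilirubin against vehicle was 3.60 (log2 1.85, SE 0.37, edgeR adjusted p = 0.0612), and it fell under 0.05 in 6 of 17 other settings, with a range of 2.54e-05 to 0.30. DESeq2 gave log2 1.83 with an adjusted p of 0.000125.

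Ctsc was at 118 and 151 CPM with vehicle, 337 and 310 CPM in WT with bilirubin, and 282 and 229 CPM in the knockout with bilirubin. These groups too were separate, in the same order as for Ctsl (log2 1.26 for WT bilirubin against vehicle, SE 0.27, edgeR adjusted p = 0.0612, and 0.00297 to 0.382 over the 17 other settings). Ctsa, the carboxypeptidase that protects Neu1, was at 130.2 and 146 CPM with vehicle, 319 and 315 CPM in WT with bilirubin, and 246 and 214 CPM in the knockout with bilirubin. Its order was the same (log2 1.20, SE 0.26, edgeR adjusted p = 0.061). Ctsh was at 109.9 and 219.9 CPM with vehicle, 414 and 438 CPM in WT with bilirubin, and 470.1 and 248 CPM in the knockout with bilirubin. Its knockout libraries spanned the WT bilirubin level (log2 1.36 for WT bilirubin against vehicle, SE 0.37). Lgmn, Ctsz, Ctss, Ctsb and Ctsd had log2 fold changes of 0.99, 0.98, 0.89, 0.82 and 0.46, and their bilirubin and vehicle libraries did not overlap.

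The 7 glycosidase, lipase and cofactor genes all lay higher with bilirubin, without overlap, with a median log2 fold change of 0.59. Grn was at 274 and 305 CPM with vehicle, 558 and 604 CPM in WT with bilirubin, and 378 and 426 CPM in the knockout with bilirubin. All 3 groups were separate for this gene (log2 1.00 for WT bilirubin against vehicle, SE 0.27, edgeR adjusted p = 0.0811, and 0.015 to 0.543 over the 17 other settings). Man2b1 was at 190 and 186 CPM with vehicle, 275 and 349 CPM in WT with bilirubin, and 262 and 249 CPM in the knockout with bilirubin, again in 3 separate groups (log2 0.73, SE 0.26). Gusb, Hexa, Neu1, Lipa and Psap had log2 fold changes of 0.67, 0.59, 0.52, 0.45 and 0.33.

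The membrane proteins had smaller fold changes. Cd63 was at 351 and 501 CPM with vehicle, 690.3 and 640 CPM in WT with bilirubin, and 409 and 451 CPM in the knockout with bilirubin. WT libraries with bilirubin were above all 4 others, and the knockout lay within the vehicle range (log2 0.64 for WT bilirubin against vehicle, SE 0.29). Scarb2 was at 109 and 107 CPM with vehicle, 141 and 182 CPM in WT with bilirubin, and 157 and 117 CPM in the knockout with bilirubin, so both bilirubin groups lay above vehicle and overlapped each other (log2 0.58, SE 0.27). Laptm5, Lamp2 and Cd68 had log2 fold changes of 0.58, 0.44 and 0.41 without overlap. Lamp1 and Mcoln1, at 0.16 and -0.08, overlapped.

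The V-ATPase and autophagosome genes differed from one another in direction. Atp6v0d1 was at 68.8 and 88.5 CPM with vehicle, 125 and 89.5 CPM in WT with bilirubin, and 104 and 120 CPM in the knockout with bilirubin, a small gap above vehicle (log2 0.45, SE 0.28). Atp6v1b2 was at 123 and 105 CPM with vehicle, 96 and 90 CPM in WT with bilirubin, and 103 and 89.6 CPM in the knockout with bilirubin, so both bilirubin groups lay below vehicle (log2 -0.29, SE 0.25). Atp6v0c, Atp6v1h and Atp6v1a were at 0.23, 0.23 and 0.21. Sqstm1 was at 178 and 192 CPM with vehicle, 386 and 318 CPM in WT with bilirubin, and 322 and 274 CPM in the knockout with bilirubin. The bilirubin groups lay above vehicle and overlapped each other (log2 0.93, SE 0.27, edgeR adjusted p = 0.0909, and 0.0341 to 0.556 over the 17 other settings). Gabarapl1 went the other way, at 72 and 53.2 CPM with vehicle, 41.5 and 34.5 CPM in WT with bilirubin, and 54.3 and 39.5 CPM in the knockout with bilirubin. The WT bilirubin libraries were below vehicle, while the knockout overlapped both groups (log2 -0.71, SE 0.29). Tfeb, Map1lc3b and Gabarap had log2 fold changes of 0.44, 0.13 and -0.15.

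**Figure D3:**
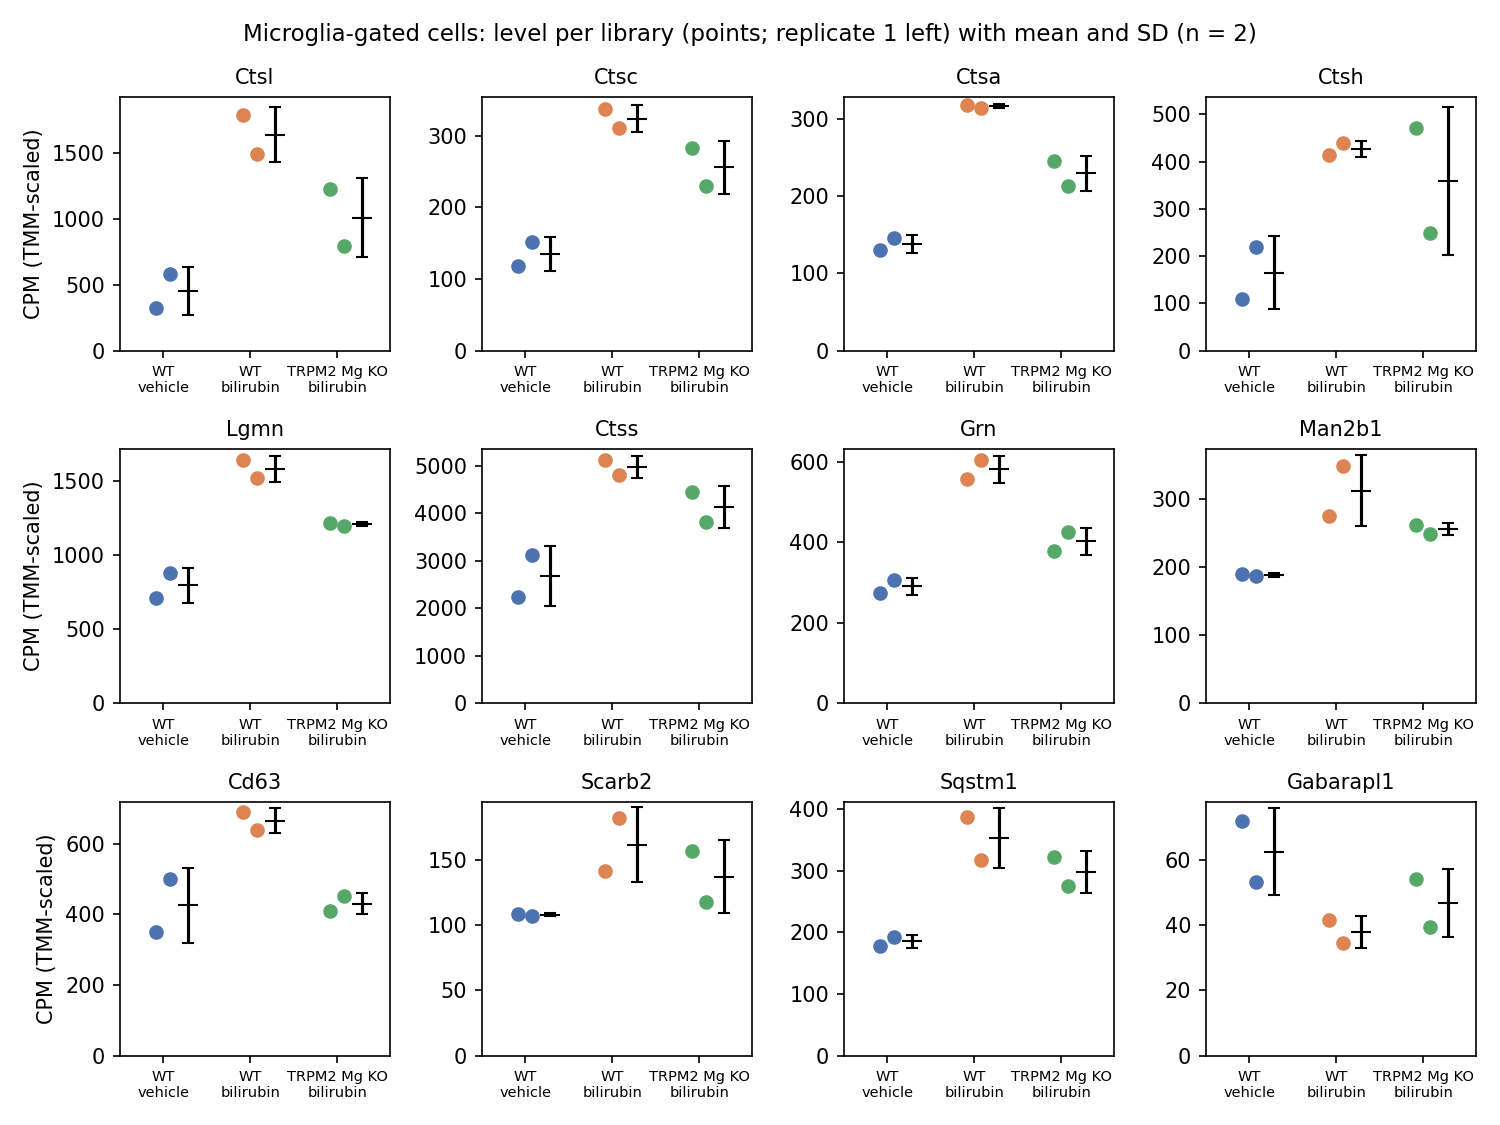
Levels of 12 genes in microglia-like cells (y axis, TMM-scaled CPM) in the 3 groups (x axis), with points for the 2 libraries of a group and a bar for the mean and SD. For Ctsl, Ctsc, Ctsa and Grn the 3 groups are separate, with WT bilirubin highest (Ctsl 1785 and 1489 CPM) and WT vehicle lowest, and Gabarapl1 runs the other way.

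Thinned to 1000 UMIs per cell, 32.1% ± 9.74 (SD, n = 2) of vehicle microglia-like cells had a Ctsl UMI, 74.2% ± 0.552 of WT bilirubin cells and 56.1% ± 8.64 of knockout bilirubin cells. Unthinned, the shares were 51.3%, 84.2% and 75.5%. Thinning left out 290, 271 and 121 cells of the 3 groups. The order of the shares was that of the CPM.

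Several other measures of these microglia-like cells moved with the groups, and their part in the differences was not tested. The summed level of the 12 microglia markers was 5647 and 5748 CPM with vehicle, 6423 and 7779 CPM in WT with bilirubin, and 7196 and 6686 CPM in the knockout with bilirubin. That of 12 astrocyte markers was 1595 and 1158, 761 and 425, and 1109 and 862 CPM. That of 12 neutrophil markers was 47.5 and 59.6, 227 and 237, and 80.3 and 35.6 CPM, with none of the 12 at 0. Border-associated macrophage markers were at 110.5 to 138 CPM in all 6 libraries. Scaled to the class's own markers, chosen as an alternative after the data were seen, the median of all genes was -0.25 and that of the 33 was 0.23, with 24 of 33 above 0.

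Of the other pathway genes, 0 of the 116 tested in microglia-like cells were called in any of the 3 group comparisons, by edgeR. With bilirubin 87 of the 116 lay above 0, with a median log2 fold change of 0.27, where 53.2% of all genes lay above 0. The further hydrolases and cofactors had 24 of 28 above 0 (median 0.60), and the other autophagy genes 25 of 37 (median 0.08).

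The third comparison asked how the TRPM2 Mg KO libraries with bilirubin compared with WT libraries with bilirubin. In microglia-like cells 0 of the 33 genes were called, where 0% of all genes were higher and 0.00724% lower. Unadjusted p was under 0.05 for 1 of the 33 and for 597 of 13810 genes, and DESeq2 called 0 of the 33. The log2 fold change was below 0 for 28 of the 33 (median -0.24, against -0.005 for all genes). For 15 of the 33 both knockout libraries lay below both WT libraries and for 0 above, where 14% of all genes did each. The largest fold changes were those of Ctsl (-0.70, SE 0.36), Cd63 (-0.63, SE 0.29), Grn (-0.53, SE 0.27) and Ctsa (-0.46, SE 0.26). All 9 proteases lay below 0, and Gabarapl1 (0.34) and Mcoln1 (0.30) had the largest values above it.

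The knockout with bilirubin was also set beside vehicle. In that comparison 0 of the 33 were called in microglia-like cells, where 0% of all genes were called in each direction. Unadjusted p was under 0.05 for 6 of the 33 and for 1045 of 13810 genes, and DESeq2 called 0 of the 33. The median log2 fold change was 0.36, 28 of the 33 were above 0, and 19 lay higher and 2 lower without overlap (24.5% and 22.2% of all genes). Side by side, with the same WT bilirubin and vehicle libraries entering 2 comparisons each, the log2 fold changes over vehicle of WT and of knockout were 1.85 and 1.15 for Ctsl, 1.26 and 0.93 for Ctsc, 1.20 and 0.74 for Ctsa, 1.00 and 0.47 for Grn, and 0.93 and 0.69 for Sqstm1. For Cd63 they were 0.64 and 0.01.

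The same group comparisons were run in the other classes. Ctsl rose in choroid plexus epithelium-like cells, the only one of the 33 called there with bilirubin, where 0.383% of 14614 genes were higher and 2.61% lower. It was at 101 and 182 CPM with vehicle, 516 and 365 CPM in WT with bilirubin, and 562 and 240 CPM in the knockout with bilirubin. Both bilirubin groups lay above vehicle and overlapped each other. The fold change of WT bilirubin against vehicle was 3.04 (log2 1.60, SE 0.37, edgeR adjusted p = 0.00703), and the call was lost without WT vehicle library 1 and without WT bilirubin library 1, while 3 of the 33 were called without WT vehicle library 2. Lamp2 followed, at 136 and 225 CPM with vehicle, 452 and 366 CPM in WT with bilirubin, and 552 and 258 CPM in the knockout with bilirubin, which passed no threshold (log2 1.16, SE 0.36, edgeR adjusted p = 0.0588). The summed level of the 12 choroid plexus markers was 3125 and 4321 CPM with vehicle and 5254 and 5429 CPM in WT with bilirubin, and that of the 12 microglia markers 334 and 217 against 177 and 113 CPM. That of 12 neutrophil markers was 22.7 and 29.1 against 104 and 121 CPM, with 5 of the 5 tested markers called higher. The part of these markers in the result was not tested. Scaled to the choroid plexus markers, a choice made after the data were seen, the median of all genes was -0.42 and that of the 33 was -0.22, and Ctsl was still called, with Ctss and Laptm5 called lower.

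Ctsh rose in endothelial-like cells, the only one of the 33 called there with bilirubin, where 0.451% of 9321 genes were higher and 0.74% lower. It was at 48.7 and 79.5 CPM with vehicle, 195 and 182 CPM in WT with bilirubin, and 218 and 140.04 CPM in the knockout with bilirubin, so both bilirubin groups lay above vehicle and the knockout spanned the WT level. The fold change of WT bilirubin against vehicle was 2.91 (log2 1.54, SE 0.36, edgeR adjusted p = 0.0443). The call was lost without WT vehicle library 1, without WT bilirubin library 1 and when libraries were scaled to the endothelial markers. The summed level of those 12 markers was 6982 and 7229 CPM with vehicle and 12650.4 and 14786 CPM in WT with bilirubin. In the same cells that of 12 neutrophil markers was 44.9 and 71.5 against 249 and 263 CPM, with 2 of 4 tested called higher, and that of 12 astrocyte markers was 2236 and 1513 against 907 and 792 CPM. The part of these markers in the result was not tested. With that scaling the median of all genes was -0.88 and that of the 33 was -0.85, and 6 of the 33 were called lower, namely Atp6v1a, Atp6v1b2, Ctsb, Ctsd, Lamp1 and Laptm5. The share of all genes called lower with that scaling is not given here, so this count is not read as particular to the 33.

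No other member was called in a tested class. With bilirubin 0 of the 27 tested in ependymal-like cells, 0 of 33 in astrocyte-like cells and 0 of 29 in oligodendrocyte-like cells passed edgeR's test, with unadjusted p under 0.05 for 0, 4 and 2 of them, and DESeq2 called 0 in each. Over all genes, unadjusted p was under 0.05 for 322 of 5630, 1774 of 12402 and 1018 of 6438 in these 3 classes. Of all genes 0.0533%, 0.00806% and 0.0932% were higher and 0.0355%, 0.0161% and 1.68% lower in these 3 classes. The medians of the 33 were -0.06, 0.04 and 0.08, and 0.06 in endothelial-like and 0.27 in choroid plexus epithelium-like cells. In all kept cells of a library, 0 of 33 were called (0.00521% of all genes higher, 0% lower), with a median of 0.25. The knockout against WT bilirubin gave 0 calls among the 33 by edgeR and by DESeq2 in each class outside microglia-like cells, with unadjusted p under 0.05 for 0 in every one. Over all genes, unadjusted p was under 0.05 for 218 of 9321 in endothelial-like and 451 of 14614 in choroid plexus epithelium-like cells. In ependymal-like, astrocyte-like and oligodendrocyte-like cells the counts were 110 of 5630, 504 of 12402 and 296 of 6438. Of all genes 0.0536% were lower in endothelial-like cells and 0.0205% higher and 0.0479% lower in choroid plexus epithelium-like cells in that comparison, and 0% in the remaining 3 classes. The knockout against vehicle likewise gave 0 calls by edgeR, and 1 by DESeq2, Ctsh in endothelial-like cells. In that comparison 0.0958% of all genes were higher and 0.0274% lower in choroid plexus epithelium-like cells and 0.0355% higher in ependymal-like cells, with 0% in the others. Leaving out WT bilirubin library 1 keeps only library 2 of that group. Its summed microglia markers were 251 CPM in astrocyte-like cells (549 to 741 CPM in the other libraries) and 242 CPM in oligodendrocyte-like cells (368 to 595 CPM). The part of that RNA in the calls that follow was not tested. Without WT bilirubin library 1, however, Cd68, Ctss and Laptm5 were called lower with bilirubin in astrocyte-like and in oligodendrocyte-like cells, and the knockout against WT bilirubin then gave 4 and 1 calls, all higher.

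Of the other pathway genes, 3 group changes were called, all with bilirubin against vehicle and outside microglia-like cells. Cst3, the secreted inhibitor cystatin C, fell in choroid plexus epithelium-like cells from 22711 and 14425 CPM to 8373 and 5631 CPM (log2 -1.41, SE 0.36, edgeR adjusted p = 0.0166). It fell in oligodendrocyte-like cells from 29222 and 19342 CPM to 9037 and 3548 CPM (log2 -1.95, SE 0.41, edgeR adjusted p = 0.0219). RNA of other classes moved with it. Summed astrocyte markers were at 878 and 505 CPM with vehicle and 313 and 177 CPM with bilirubin in choroid plexus epithelium-like cells (11 of 12 below 0, 2 called lower), where microglia markers were lower too. In oligodendrocyte-like cells astrocyte markers were at 1901 and 1207 against 885 and 583 CPM (1 of 7 tested called lower) and microglia markers at 595 and 531 against 368 and 242 CPM. The part of this RNA in the 2 differences was not tested, and lower free RNA and lower expression by the class cannot be told apart here. Atp6ap2, a V-ATPase accessory protein, rose in choroid plexus epithelium-like cells from 87.6 and 113 CPM to 264 and 208 CPM (log2 1.21, SE 0.36, edgeR adjusted p = 0.0407).

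The last comparison tested whether the bilirubin effect in microglia-like cells differed from the mean effect in the other 5 classes, with library as a block. It was larger in microglia-like cells for 9 of the 33 genes and smaller for 0, where 1.87% of 13057 genes were larger and 0.306% smaller. The differences on the log2 scale were 1.33 for Ctss (SE 0.31), 1.27 for Laptm5 (SE 0.26), 1.23 for Cd68 (SE 0.31), 1.14 for Grn (SE 0.25), 1.12 for Gusb (SE 0.31), 1.09 for Ctsc (SE 0.30), 1.04 for Ctsl (SE 0.23), 0.87 for Lgmn (SE 0.23) and 0.79 for Ctsb (SE 0.22). Their edgeR adjusted p-values ran from 0.00336 for Laptm5 to 0.0383 for Gusb. Without WT bilirubin library 1, only library 2, which stood apart in RNA of some other classes, stood for its group. The share of all genes called with 1 library left out is not given beside the counts that follow. The count was 0 without WT vehicle library 1, 0 without WT bilirubin library 2, 5 without WT vehicle library 2, 5 without knockout library 1 and 14 without WT bilirubin library 1.

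For some of these genes the values ran in opposite directions. Laptm5 in choroid plexus epithelium-like cells was at 107.1 and 60.3 CPM with vehicle and 50.4 and 31.4 CPM in WT with bilirubin, while in microglia-like cells it was at 710 and 816 against 1072 and 1205 CPM. Its log2 fold change was below 0 in all 5 other classes, between -0.97 and -0.20. The microglia markers used for the gate had the same pattern: all 12 had a difference above 0, with a median of 1.07, and 7 were called. Their summed level was 741 and 614 CPM with vehicle and 549 and 251 CPM in WT with bilirubin in astrocyte-like cells. In oligodendrocyte-like cells it was 595 and 531 against 368 and 242 CPM. The part of these markers in the 9 differences was not tested. The knockout against WT bilirubin gave 0 such differences among the 33 genes by edgeR, where 0% of all genes were called, and 27 of the 33 were below 0 (median -0.27). Without WT bilirubin library 1 it gave 7, all lower.

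**Figure D4:**
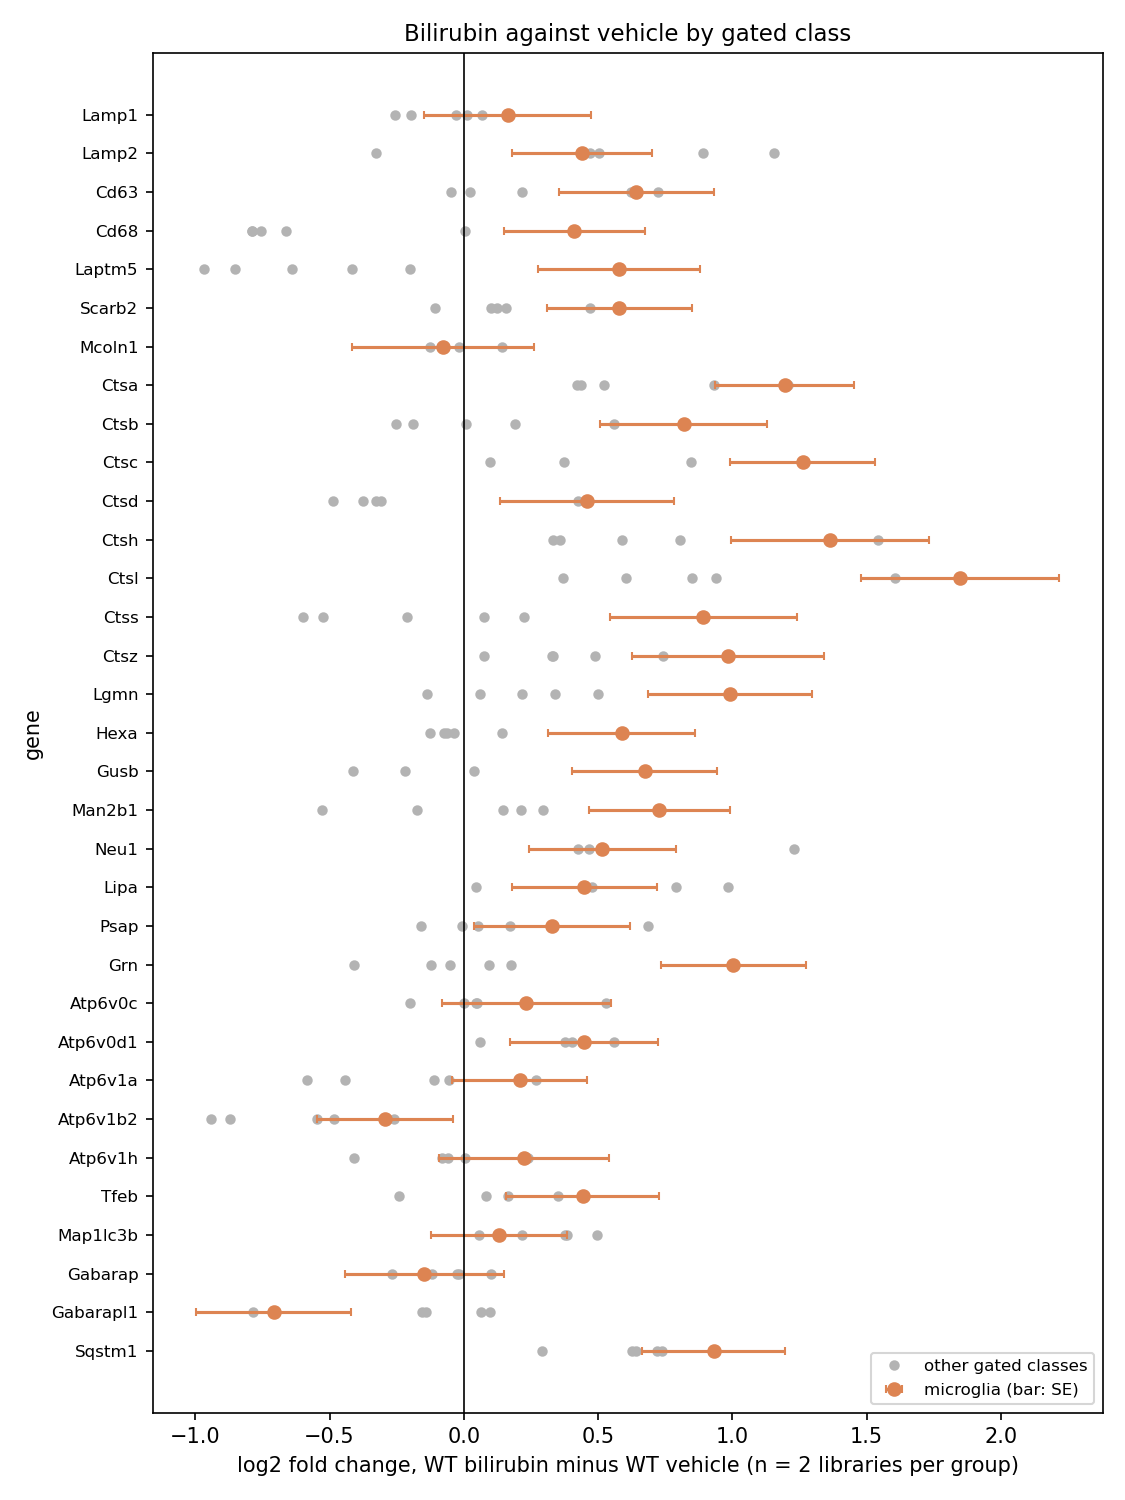
Log2 fold change of WT bilirubin minus WT vehicle (x axis) for the 33 genes (rows), with an orange point and SE bar for microglia-like cells and grey points for the other tested classes, n = 2 libraries per group. The microglial point lies right of the grey points for Grn (1.00) and Laptm5 (0.58), and among or near them for Ctsl, which rose in choroid plexus epithelium-like cells, and Ctsh, which rose in endothelial-like cells.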

How the data were processed

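Each of the 6 libraries was deposited by the authors as a matrix of raw UMI counts per gene and barcode, written by cellranger 9.0.1 per the file headers, from 10x 3′ libraries per the labels' protocols. In the submitters' processing notes, Scanpy 1.9.6 and Cell Ranger 8.0.0 are listed, as are 2 builds, mm10 and GRCm39, and which of them the counts used is not stated there. Cells needed at least 500 UMIs, 300 genes and at most 15% mitochondrial UMIs, which 94144 of 95014 barcodes passed. Per library, the highest Scrublet scores were removed as doublets at 0.8% per 1000 barcodes (14379 in all), a rule chosen after the automatic threshold was seen to call very different shares. UMIs were then summed per library and gated class (Python 3.11.15, scanpy 1.11.5). In astrocyte-like cells, 26.2% lay at the gate's minimum.

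Sums were tested with edgeR 4.0.16 (R 4.3.3) after TMM scaling and its filter on low counts, by the quasi-likelihood test with Benjamini-Hochberg adjustment over all genes at 0.05. Group comparisons were fitted on all 6 libraries with 3 residual degrees of freedom, and class comparisons with library as a block. Alternatives were other gates, doublet rules, UMI minimums, filters and scalings, DESeq2 1.42.0, a replicate block and leaving out each library. The code was tested on simulated data. All 33 genes are named, with per-library values for those called in a group comparison and, in microglia-like cells, for the 2 of each role with the smallest p with bilirubin. Ctsa and Ctsh in microglia-like cells, and Lamp2 and Laptm5 in choroid plexus epithelium-like cells, were added after their values were seen. The 33 genes and all lists were chosen with earlier results of these data known.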

Additional observations from a re-analysis of the deposited data

Results flagged for a closer look

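The bilirubin effect (log2 of WT bilirubin over WT vehicle) was larger in microglia-like cells than the mean effect in the other 5 tested classes for 9 of the 33 genes, by the test of that difference over all genes (edgeR, n = 2 libraries per group, library as a block). Among the proteases the log2 difference was 1.33 for Ctss (adjusted p = 0.00856), 1.09 for Ctsc (adjusted p = 0.0334), 1.04 for Ctsl (adjusted p = 0.00731), 0.873 for Lgmn (adjusted p = 0.0286) and 0.792 for Ctsb (adjusted p = 0.0373). For the membrane proteins it was 1.27 for Laptm5 (adjusted p = 0.00336) and 1.23 for Cd68 (adjusted p = 0.0164). A difference can hold a fall in the other classes as well as a rise in microglia-like cells. Within microglia-like cells 0 membrane protein genes were called with bilirubin, and their largest log2 fold change was 0.64. Both differences exceed it, and Laptm5 was below 0 in all of the other 5 classes. Grn and Gusb had differences of 1.14 (adjusted p = 0.00494) and 1.12 (adjusted p = 0.0383). No gene of the 33 was called without WT vehicle library 1 or without WT bilirubin library 2, and 14 were called without WT bilirubin library 1. With WT bilirubin library 1 left out, only library 2, which stood apart in RNA of some other classes, stood for its group. The 12 microglia gate markers had a median difference of 1.07, with 7 of 12 called, and their part in the 9 differences was not tested.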

How the results depend on the processing

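Of the 35 counts of called genes, 14 moved by over 1.5 times in no setting. Directions turned in places: with library totals 11 of the 33 class differences in choroid plexus epithelium-like cells changed sign. With bilirubin in microglia-like cells, 6 of the 33 were called with no filter on low counts, 8 by DESeq2 and 3 (Ctsa, Ctsc and Ctsl) with the replicate number as a block. That number did not pair the libraries: the correlations between the 3 groups' deviations of replicate 1 from the group mean were 0.0849, -0.097 and 0.0582. Leaving out 1 library at a time gave 0 to 5 calls there. It gave 0 to 3 in choroid plexus epithelium-like, astrocyte-like and oligodendrocyte-like cells and 0 to 1 in endothelial-like cells. For the knockout against vehicle the range was 0 to 2 in choroid plexus epithelium-like and 0 to 1 in endothelial-like cells, and for the knockout against WT bilirubin 0 to 4 in astrocyte-like and 0 to 1 in oligodendrocyte-like cells. All other group comparisons stayed at 0. The difference of the bilirubin effect ranged from 0 to 14 calls, and that of the knockout effect from 0 to 7. Where 1 library of a group was left, it was assumed to vary like the other groups. Apart from DESeq2 in microglia-like cells, the share of all genes called under each other setting is not given here. Counts of the 33 under those settings therefore show only how far the calls depend on the setting. Scaling to the class markers turned the 1 higher call with bilirubin in endothelial-like cells into 6 lower ones, and it gave 3 calls in choroid plexus epithelium-like cells, and 2 in the latter with the automatic doublet threshold. For the knockout against vehicle 1 was called in endothelial-like cells with no filter, by DESeq2, by marker scaling and with the automatic doublet threshold, and 1 in choroid plexus epithelium-like cells with no filter, with the automatic threshold and with only the 4 libraries compared.

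Between classes, leaving out 1 library gave 26 higher and 1 to 2 lower in microglia-like cells, 16 to 19 and 9 to 11 in choroid plexus epithelium-like, 2 and 14 to 18 in endothelial-like, 1 to 2 and 19 to 22 in ependymal-like, 0 and 10 to 16 in astrocyte-like, and 5 to 7 and 15 to 16 in oligodendrocyte-like cells. In microglia-like cells 2 were lower with a gate of 4 markers, with doublets kept, with a minimum of 1000 UMIs and with the automatic doublet threshold. The WT vehicle libraries alone gave 1 higher and 10 lower in endothelial-like, 0 and 10 in ependymal-like cells, 6 lower in astrocyte-like and 3 higher in oligodendrocyte-like cells. Library totals gave 6 higher and 21 lower in choroid plexus epithelium-like cells, 14 lower in ependymal-like cells, and 2 higher and 3 lower in astrocyte-like cells. With no filter 7 were lower in choroid plexus epithelium-like, 1 was higher in ependymal-like and 4 were higher in oligodendrocyte-like cells. Depth limits the rarest classes, with as few as 23 oligodendrocyte-like and 40 ependymal-like cells in a library, where 29 and 27 of the 33 genes could be tested.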

Other observations

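Some classes with too few cells to test also carried these genes. Their values are sums over the 6 libraries, scaled to all UMIs of the class, with no test. The 27 cells like border-associated macrophages held 63070 UMIs, and their levels were 2315 CPM for Ctsb, 1459 CPM for Ctss, 1126 CPM for Psap, 872 CPM for Ctsd, 840 CPM for Ctsc, 650.1 CPM for Lgmn, 460 CPM for Laptm5 and 365 CPM for Cd68. The 33 genes took 1.13% to 1.88% of their UMIs over the libraries. The 181 cells like neutrophils, with 562111 UMIs, were at 404 CPM for Ctsd, 377 CPM for Ctss and 35.6 CPM for Cd68, with a share of 0.471% to 0.671%. The 627 cells like T or NK cells, with 1713108 UMIs, were at 423 CPM for Ctss, 421 CPM for Laptm5, 317 CPM for Ctsd and 21.6 CPM for Cd68, with a share of 0.314% to 0.541%. The 16 cells like monocytes or dendritic cells, with 75503 UMIs, were at 543 CPM for Laptm5, 291 CPM for Grn, 238 CPM for Ctsc and 119 CPM for Cd68, with a share of 0.789% to 1.22%. The highest library of border-associated macrophage-like cells, at 1.88%, lay within the range of the microglia-like libraries.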
